A study of Homo sapiens with 4 samples.

Results

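The genes described here are 10 members of the Notch pathway, picked by gene symbol from the 60623 genes of a set of RNA-seq count files: the receptors NOTCH1, NOTCH2 and NOTCH3, the ligands JAG1, JAG2 and DLL1, the co-activator MAML2, and the target genes HES1, HEY1 and HEYL. Each symbol matched 1 gene, and 9 of the 10 members passed the filter on low counts that left 17058 genes for testing. All libraries were made from BICR10 cells, an established human line of head and neck cancer, transduced with lentivirus carrying either a control hairpin (shControl, 2 libraries) or a hairpin against YEATS2 (shYEATS2, 2 libraries) and selected with puromycin. YEATS2 is a chromatin protein whose YEATS domain reads acylated histones, and the comparison asks which transcripts differ in level when it is silenced. A pair of YEATS2 hairpins is listed for the study, and which of them each shYEATS2 library carried is not given in the sources used here, nor is whether the 2 libraries of a condition came from separate cultures, so p-values measure only the spread between these libraries.

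Notch signalling passes between touching cells. A Jagged or Delta-like ligand on 1 cell binds a Notch receptor on its neighbour, the receptor is cut by ADAM proteases and then by γ-secretase, and the freed intracellular part enters the nucleus. There it joins the DNA-binding protein RBPJ and a Mastermind co-activator and switches on genes such as HES1, HEY1 and HEYL, which encode basic helix-loop-helix repressors. In squamous epithelium the pathway is known for driving differentiation, and NOTCH1 is a gene often mutated in head and neck squamous cancers.

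In the shYEATS2 libraries, JAG1, NOTCH3 and NOTCH2 were higher than in shControl, and DLL1 and NOTCH1 were lower. JAG1 stood at 164% of its shControl level and DLL1 at 48.7%. HES1, HEY1, MAML2 and JAG2 did not pass the test, and HEYL was too low to test. Thus 3 of the 9 tested members were called higher and 2 lower by edgeR's quasi-likelihood test at a Benjamini-Hochberg adjusted p under 0.05, where 22.6% of all tested genes were called higher, 23.6% lower and 46.2% in either direction. The median log2 fold change of the members was 0.15, which is the value of JAG2, a gene not called, beside −0.01 over all tested genes. DESeq2, which called 16.5% of all genes higher and 17.3% lower, called the same 3 members higher and 0 lower (3 higher and 2 lower at an unadjusted p under 0.05). The libraries of 7 of the 9 members did not overlap between conditions, which was also true of 71.6% of all tested genes. Both counts are thus near what the whole table gives.

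**Figure D1:**
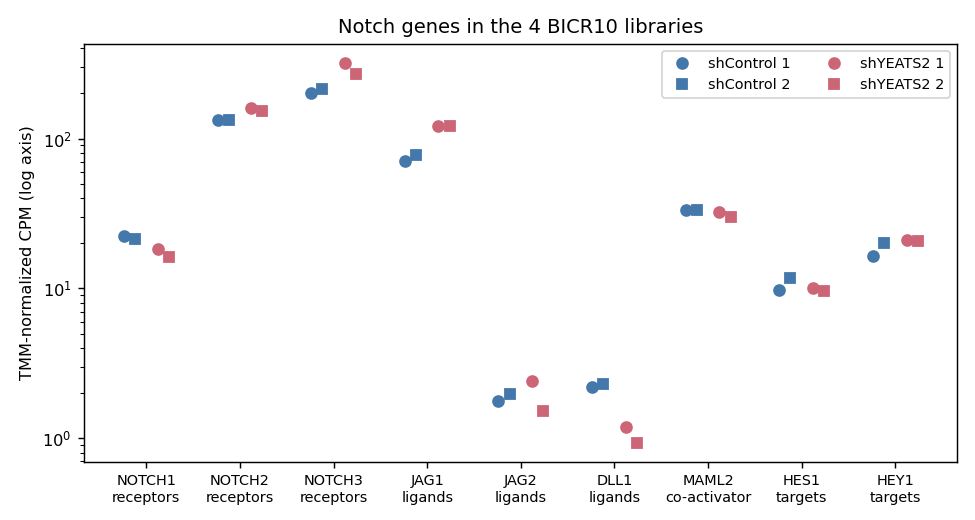
TMM-normalized level (CPM, log axis) of the 9 tested Notch members in each of the 4 libraries, with circles for replicate 1 and squares for replicate 2, blue for shControl and red for shYEATS2. The points of JAG1 and NOTCH3 lie higher in shYEATS2 and those of DLL1 lower, while the points of HES1 and JAG2 overlap between conditions; values of different genes on this axis are not corrected for gene length.

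The knockdown was visible in both shYEATS2 libraries. YEATS2 had 66.1 and 66.7 CPM in shControl and 29.2 and 29.1 CPM in shYEATS2, with a log2 fold change of −1.19 (SE 0.08). CPM is the usual unit of a count scaled to the size of its library, here with TMM normalization, and levels are given in the order shControl 1, shControl 2, shYEATS2 1, shYEATS2 2. The totals on genes ran from 39824898 to 47297970 counts in shControl and from 11334133 to 24072396 in shYEATS2, so depth and condition cannot be told apart by design. With all libraries thinned to 11334133 counts, the same test still called 3 members higher and 2 lower. As a check of the labelled head and neck cancer cells, markers of squamous epithelium were read. The list of 12 genes had a summed level of 212 and 213 CPM in shControl and 146 and 137 CPM in shYEATS2, most of it SFN, which had 126 to 136 CPM in shYEATS2 and was not called. KRT6A went from a mean of 56.6 CPM to 1.79 CPM and KRT5 from 15.7 to 1.19 CPM, so that little signal of both was left in shYEATS2. Keratins outside the list were not read. GRHL2 was at 0 in all libraries, and TP63 had at most 3 counts, ESRP1 at most 4 and KRT17 at most 15. Of the 8 squamous markers that could be tested, 5 were lower in shYEATS2 and 1, CDH1, was higher. CDH1 was low, with 0.353 and 0.318 CPM in shControl and 2.84 and 2.12 CPM in shYEATS2. Fibroblast markers were far more abundant, with a summed level over 10 genes of 8853 and 8804 CPM in shControl and 4213 and 3939 CPM in shYEATS2, and 7 of the 9 tested were lower while 1, VIM, was higher. Endothelial markers summed over 8 genes to 36.2 and 37.0 CPM in shControl and 19.6 and 20.9 CPM in shYEATS2, most of it KDR, with TIE1 at 0 throughout and CDH5 at no more than 1 count. Of the 4 tested, KDR was lower, TEK, with 4 to 9 counts per library, was higher, and 2 were not called. The summed levels of these lists moved with the condition together with the Notch genes below, and the part of these lists in the Notch results was not tested. In such bulk RNA, fewer cells of a type and less RNA per cell cannot be told apart.

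The receptors split by direction: NOTCH3 and NOTCH2 rose and NOTCH1 fell. NOTCH3 (ENSG00000074181, chr19:15159038-15200995 on GRCh38, minus strand) encodes a receptor best known from the smooth muscle of blood vessels. It had 200.2 and 214 CPM in shControl and 319 and 268 CPM in shYEATS2, from 3155 to 9080 counts per library. Both shYEATS2 libraries lay above both shControl libraries, and the shYEATS2 libraries differed more from each other than the shControl libraries did (294 ± 36.6 CPM against 207 ± 9.82, SD, n = 2 each). The log2 fold change was 0.51 (SE 0.07, 95% interval 0.38 to 0.64, adjusted p = 1.3e-08). Here and below, where no other tool is named, the adjusted p is edgeR's, after Benjamini and Hochberg.

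NOTCH2 (ENSG00000134250, chr1:119911553-120100779, minus strand), a receptor with wide expression across tissues, had 133 and 132 CPM in shControl and 161 and 153 CPM in shYEATS2. The conditions did not overlap, but the difference was small, with a log2 fold change of 0.25 (SE 0.06, 95% interval 0.13 to 0.37, adjusted p = 0.000574). Human chromosome 1 carries near-identical partial copies of NOTCH2. Of these, NOTCH2NLC had 65, 53, 31 and 7 counts and was not called, NOTCH2NLA had 1 or 2 counts per library, and NOTCH2NLB had 0 counts, against 1809 to 6020 counts on NOTCH2 itself. Read pairs tallied as aligned to several places, 3.25% to 3.53% of a library, are on no gene in these counts.

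NOTCH1 (ENSG00000148400, chr9:136494433-136546048, minus strand), the receptor tied to squamous differentiation, ran the other way. Its libraries had 22.3 and 21.2 CPM in shControl and 18.3 and 16.2 CPM in shYEATS2, with no overlap. The mean fell from 21.8 ± 0.719 CPM to 17.3 ± 1.49 CPM (SD of the 2 libraries). In the fit this was −0.32 on the log2 scale (SE 0.10, 95% interval −0.52 to −0.12, adjusted p = 0.00645). This call was lost with DESeq2 (adjusted p = 0.058), with scaling by library totals (log2 fold change −0.18, adjusted p = 0.131) and without shControl replicate 1 (−0.29, adjusted p = 0.0993).

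**Figure D2:**
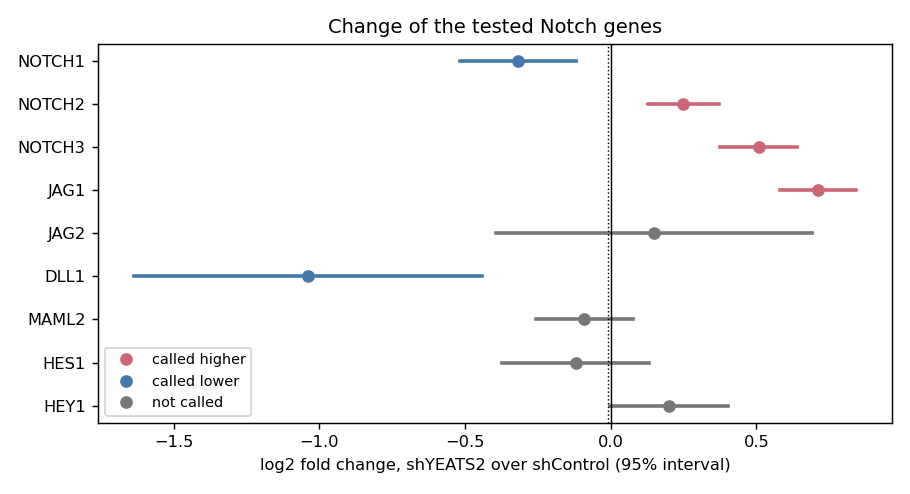
Log2 fold change of shYEATS2 over shControl for the 9 tested Notch members, with bars for the 95% interval of the edgeR fit, red for genes called higher, blue for lower and grey for those not called; the dotted line is the median of all tested genes (−0.01). JAG1 and NOTCH3 have narrow intervals above 0, while DLL1 has the widest interval of the called members, −1.64 to −0.44.

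Among the ligands, JAG1 rose and DLL1 fell, and JAG2 did not pass the test. JAG1 (ENSG00000101384, chr20:10637684-10673999, minus strand) encodes the Jagged ligand most abundant here. Its level was 71.2 and 77.7 CPM in shControl and 122 CPM in both shYEATS2 libraries. The conditions were well apart, with means of 74.5 ± 4.62 and 122 ± 0.091 CPM (SD of the 2 libraries), and the log2 fold change was 0.71 (SE 0.07, 95% interval 0.58 to 0.84, adjusted p = 1.2e-14). A gene on the other strand covers 3.29% of the exon bases of JAG1, and the strand setting of the counting is not given in the sources used here, so reads of that gene may be included.

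DLL1 (ENSG00000198719, chr6:170282206-170306565, minus strand) encodes a Delta-like ligand and was expressed at a low level, with 100 and 87 counts in shControl and 30 and 11 counts in shYEATS2. Scaled for depth, these were 2.20, 2.30, 1.18 and 0.933 CPM, so that both shYEATS2 libraries lay well below both shControl libraries. The log2 fold change was −1.04 (SE 0.30, 95% interval −1.64 to −0.44, adjusted p = 0.00294). With DESeq2 the fold change was −1.05 and its adjusted p, 0.0503, missed the threshold. FAM120B, on the other strand, shares 9.69% of the exon bases of DLL1.

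JAG2 (ENSG00000184916, chr14:105140982-105168824, minus strand), the second Jagged ligand, had 80, 75, 61 and 18 counts, or 1.76, 1.98, 2.41 and 1.53 CPM. A gene on the same strand, ENSG00000257622, shares 7.33% of its exon bases, and reads there cannot be told apart by strand. The lowest and the highest of the JAG2 levels were both in shYEATS2, so the conditions overlapped. Its log2 fold change of 0.15 (SE 0.27, adjusted p = 0.686) had a 95% interval from −0.39 to 0.69, which leaves room for a change as large as that of NOTCH3.

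The upstream sequences of NOTCH3 and JAG1 are shown because these were the receptor and the ligand with the largest rise among the members. They are the 250 bases before the start site in RefSeq (GRCh38.p14), chr19:15200996-15201245 and chr20:10674000-10674249, both read on the minus strand, 5′ to 3′. Capitals mark the GC box GGGCGG, the core of the binding site of SP1 and related factors, or its reverse complement.
NOTCH3: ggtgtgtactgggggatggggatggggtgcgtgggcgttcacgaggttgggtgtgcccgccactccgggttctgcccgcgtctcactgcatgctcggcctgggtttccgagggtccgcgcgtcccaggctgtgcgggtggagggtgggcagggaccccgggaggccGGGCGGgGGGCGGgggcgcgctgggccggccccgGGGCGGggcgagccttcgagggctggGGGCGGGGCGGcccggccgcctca
JAG1: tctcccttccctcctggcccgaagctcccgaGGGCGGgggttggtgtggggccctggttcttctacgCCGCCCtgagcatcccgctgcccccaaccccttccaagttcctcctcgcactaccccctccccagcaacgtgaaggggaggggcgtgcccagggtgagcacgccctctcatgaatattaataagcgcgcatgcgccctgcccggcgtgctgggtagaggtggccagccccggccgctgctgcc
NOTCH3 has 5 such matches here, of which a pair overlaps by 1 base, and JAG1 has 2, on opposite strands. The whole RefSeq window runs from 250 bases before to 50 bases after the start and adds 1 match in JAG1. Over it, GGGCGG was also present in NOTCH1 (4 matches), which fell, and in NOTCH2, JAG2 and MAML2 (2 each) and HEYL (3), but not in HES1. It occurs in 45.0% of all 35116 RefSeq windows of this kind, and 26.7% have 2 or more. The table held 8 of the 10 members, all but DLL1 and HEY1. The windows of 7 of these 8 had a GC content of 61.3% to 79.7%, above the median of 58.7% over all windows, and HES1 was close to that median at 59.0%. A match is a run of letters and was not shown here to be bound.

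MAML2 (ENSG00000184384, chr11:95976598-96343195, minus strand), a Mastermind co-activator that binds the receptor's intracellular part on DNA, did not pass the test. It had 33.4 and 33.3 CPM in shControl and 32.4 and 30.0 CPM in shYEATS2. The shYEATS2 libraries lay just below the shControl libraries, with a log2 fold change of −0.09 (SE 0.08, 95% interval −0.26 to 0.08, adjusted p = 0.398), so that a change as large as that of NOTCH1 lies outside its interval. Genes on the other strand share 8.96% of its exon bases.

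Of the 3 target genes among the members, HES1 and HEY1 were not called and HEYL could not be tested. HES1 (ENSG00000114315, chr3:194136148-194138732, plus strand), the repressor most often used as a readout of Notch activity, had 9.79 and 11.7 CPM in shControl and 10.03 and 9.59 CPM in shYEATS2. The conditions overlapped, and the shControl libraries were further apart than the shYEATS2 libraries (10.7 ± 1.35 CPM against 9.81 ± 0.310, SD, n = 2 each). The log2 fold change was −0.12 (SE 0.13, adjusted p = 0.459), with a 95% interval from −0.37 to 0.13 that leaves out a rise of the size seen for NOTCH3 or JAG1. Its sign changed with the scaling, to 0.02 with library totals alone, a scaling that also moved the median of all genes to 0.13. Relative to that median the change of HES1 was −0.11 under both scalings. A scaling shifts all genes nearly alike, so this likeness was given in advance and cannot decide between the scalings.

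HEY1 (ENSG00000164683), a related repressor, had 16.4 and 20.0 CPM in shControl and 20.9 and 20.8 CPM in shYEATS2. Both shYEATS2 libraries were above both shControl libraries, but shControl 2 was closer to them than to shControl 1. The log2 fold change of 0.20 (SE 0.10, adjusted p = 0.103) had a 95% interval that reached from just under 0 to 0.40, and it was 0.06 without shControl replicate 1 and 0.34 (adjusted p = 0.0507) without shControl replicate 2. HEY1 passed the threshold only with scaling by library totals (0.33, adjusted p = 0.00864) among the alternatives tried. Its change relative to the median of all genes was then 0.21, as with TMM, which again follows from a shift common to all genes. HEYL (ENSG00000163909, chr1:39623435-39639643, minus strand), the third repressor, had 3 counts in shControl 1 and 0 in the other libraries. A count of 0 allows a level of up to 0.0794 CPM in shControl 2, 0.118 in shYEATS2 1 and 0.255 in shYEATS2 2 (3 counts per library, counting error only). Changes of HEYL below these levels could not be detected at this depth.

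The upstream sequences of HES1 and HEYL are shown because both hold matches to the core of the RBPJ site, the DNA element through which Notch acts, although neither gene was called. They are again the 250 bases before the start in RefSeq (GRCh38.p14), chr3:194135898-194136147 on the plus strand and chr1:39639644-39639893 on the minus strand, with TGGGAA or its reverse complement in capitals.
HES1: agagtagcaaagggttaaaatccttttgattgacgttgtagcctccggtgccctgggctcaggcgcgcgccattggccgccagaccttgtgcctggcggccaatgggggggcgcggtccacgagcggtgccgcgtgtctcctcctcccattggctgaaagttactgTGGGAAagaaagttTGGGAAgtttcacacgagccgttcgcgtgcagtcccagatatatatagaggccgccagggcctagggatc
HEYL: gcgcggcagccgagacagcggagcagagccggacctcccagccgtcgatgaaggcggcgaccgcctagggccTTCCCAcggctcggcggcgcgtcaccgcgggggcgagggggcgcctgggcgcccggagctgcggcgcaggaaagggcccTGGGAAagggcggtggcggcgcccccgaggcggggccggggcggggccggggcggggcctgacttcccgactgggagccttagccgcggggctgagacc
Counted from the start site, the matches of HES1 begin at −84 and −70, and both read along the gene's strand. Those of HEYL begin at −178, on the opposite strand, and at −99. The other 6 members in the table had no match in their windows. TGGGAA was found in 24.0% of all RefSeq windows and at least 2 matches in 1333 of the 35116. The longer form GTGGGAA, which contains it, had 1 match in HES1 and 1 in HEYL and was found in 6.25% of all windows. The transcript levels set these genes far apart, since HES1 had between 113 and 444 counts in every library and HEYL at most 3.

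To set genes side by side, levels were divided by the length of each gene's merged exons. In shControl, NOTCH3 led with 22.0 CPM per kilobase, followed by JAG1 with 8.01 and NOTCH2 with 7.90, whose libraries overlapped on this scale. HES1 (5.22), MAML2 (4.69), HEY1 (3.32) and NOTCH1 (1.74) came next, and DLL1 (0.590) and JAG2 (0.293) were lowest but for HEYL, at 0.00811. In shYEATS2 the first places were NOTCH3 with 31.2, JAG1 with 13.1 and NOTCH2 with 9.38 CPM per kilobase, and JAG1 and NOTCH2 no longer overlapped. JAG2 (0.308) and DLL1 (0.277) now overlapped at the low end. The order of JAG1 and NOTCH2 in shControl and the place of HEY1 depended on the length used. With the length of the canonical transcript, chosen after the values were seen, JAG1 (11.99 to 13.09 CPM per kilobase) lay above NOTCH2 (11.55 to 11.62) in shControl with no overlap. HEY1 had 8.28 CPM per kilobase in shControl and 9.48 in shYEATS2 and stood above HES1 (6.82 and 6.23).

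Within each role the make-up shifted between conditions. NOTCH1 made up 5.74% and 5.24% of the summed receptor level per kilobase in shControl and 3.25% and 3.32% in shYEATS2. NOTCH3 made up 68.7% and 70.4%, then 75.4% and 73.1%, and NOTCH2 25.6% and 24.4%, then 21.3% and 23.6%. NOTCH2 thus lost share while its own level rose. The ratio of NOTCH3 to NOTCH1 was 12.0 and 13.4 in shControl and 23.2 and 22.0 in shYEATS2. Among the ligands, DLL1 went from 6.78% and 6.50% to 2.25% and 1.80%, and JAG1 from 90.0% and 90.2% to 95.03% and 96.4%. The ratio of JAG1 to DLL1 was 13.3 and 13.9 in shControl and 42.3 and 53.6 in shYEATS2. Of the targets, HES1 went from 61.2% and 60.9% to 56.1% and 55.1%, and the ratio of HEY1 to HES1 from 0.630 and 0.641 to 0.782 and 0.814. With the canonical transcript length HES1 was the smaller part, going from 45.3% and 45.0% to 40.1% and 39.1%, and the ratio went from 1.20 and 1.22 to 1.49 and 1.55. The length thus decides which of both genes is higher. A length is the same in every library, so it cannot alter the fold shift of the ratio between conditions. The 2 libraries of a condition gave close ratios of HEY1 to HES1, though each gene alone differed between the shControl libraries. The conditions did not overlap in these shares and ratios, which were not tested. Such a lack of overlap was also seen for the levels of 71.6% of all tested genes. The share of NOTCH2 in shControl 2 (24.4%) lay close to that in shYEATS2 2 (23.6%), and neither HES1 nor HEY1 was called.

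**Figure D3:**
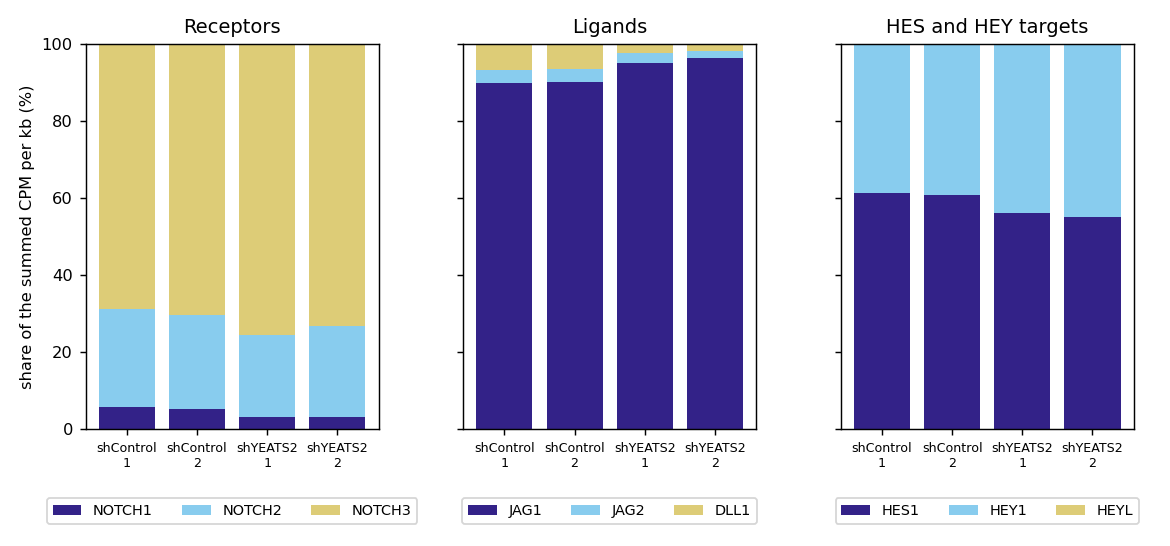
Share (%) of each Notch receptor, ligand and HES or HEY target in the summed level of its role, in CPM per kilobase of merged exons, for each library. NOTCH3 and JAG1 take the larger part in every library, and NOTCH1 and DLL1 shrink in both shYEATS2 libraries; HEYL is too low to be seen.

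Of 49 further Notch pathway genes, 42 were tested, and 11 were called higher and 11 lower with a median log2 fold change of 0.06. Both counts are near what the shares of 22.6% higher and 23.6% lower over all tested genes would give. With scaling by library totals the split was 17 higher and 5 lower, and that of the members 4 higher and 1 lower. The calls lost there were 6 of the lower ones, POGLUT1, APH1A, PSENEN, MIB2, NUMBL and CTBP1, all still below 0. The largest fall was that of LFNG, the Fringe glycosyltransferase that adds sugars to Notch receptors and alters which ligands they answer to. LFNG had 15.9 and 17.6 CPM in shControl and 4.78 and 2.97 CPM in shYEATS2, a log2 fold change of −2.02 (SE 0.14, adjusted p = 2.2e-18). POGLUT1, which adds glucose to the receptors, also fell (−0.30, adjusted p = 0.00942). The other 3 of the 5 glycosylation genes were not called, where 46.2% of all tested genes were called in either direction.

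Of the 9 proteases that process Notch, 5 were called lower and 2 higher, beside 23.6% and 22.6% of all tested genes. The split depended on the scaling and on 1 library: it was 3 lower and 3 higher with library totals alone, and 3 lower and 2 higher without shControl replicate 1. FURIN, which cuts the receptor on its way to the surface, had 100.5 and 106 CPM in shControl and 63.6 and 56.8 CPM in shYEATS2 (log2 fold change −0.77, adjusted p = 4.8e-15). NCSTN, a γ-secretase subunit, fell by 0.54 on the log2 scale (adjusted p = 4.2e-11). ADAM10, the protease of the ligand-induced cut, fell by 0.37 (adjusted p = 4.3e-07). The γ-secretase subunits PSENEN and APH1A fell by 0.40 and 0.21 (adjusted p = 0.0158 and 0.00761). PSENEN had 15.9 and 11.3 CPM in shControl and 10.03 and 11.0 CPM in shYEATS2, so that shControl 2 lay close to shYEATS2 2. Both calls were lost with library totals (adjusted p = 0.161 for PSENEN and 0.360 for APH1A). ADAM17, a related protease, rose instead, by 0.33 on the log2 scale (adjusted p = 1.9e-05).

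In the nucleus, RBPJ, the DNA-binding partner of the cleaved receptor, rose from 43.2 and 45.2 CPM to 53.5 and 59.0 CPM (log2 fold change 0.34, adjusted p = 0.000127). MAML3, a paralogue of MAML2, rose from 1.34 and 1.14 CPM to 4.22 and 4.24 CPM (1.76, adjusted p = 7.7e-09), while MAML1 was not called (−0.18, adjusted p = 0.0667). The acetyltransferase EP300 was higher (0.18, adjusted p = 0.0192) and the co-repressor CTBP1 lower (−0.18, adjusted p = 0.0246). Of the 10 genes in the nuclear complex, 3 were called higher and 1 lower, beside 22.6% and 23.6% of all tested genes. The other 6, MAML1 among them, were not called. With library totals 6 were higher and 0 lower, and with DESeq2 2 were higher and 0 lower. The call of CTBP1 was thus lost in both, and also without either shControl replicate. EP300 had the smallest of the 3 rises. Among the genes of trafficking and ubiquitin ligation, 3 of 10 tested were higher and 2 lower, again near the shares over all tested genes. NEURL1B (0.49) and ITCH (0.38), ubiquitin ligases, rose, and NUMBL (−0.31), a relative of the Notch inhibitor NUMB, and MIB2 (−0.26), a ligase of Notch ligands, fell. NEURL1, also called higher, had only 1, 1, 9 and 5 counts. Its depth-scaled ratio was 15.7, with a 95% interval of counting error from 3.60 to 142.

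Of the other ligands, DLK2, a non-canonical Delta-like protein, rose by 1.41 on the log2 scale (adjusted p = 3.7e-05) and DNER, also non-canonical, by 0.31 (adjusted p = 0.00891). With DESeq2, 1 of the 3 tested ligands of this list was called higher, in place of 2. With no filter on low counts it was 1 of 4. A call was also lost without either shControl replicate and without shYEATS2 replicate 1. DLL4 had at most 2 counts and DLK1 was at 0 in all libraries. Of 8 other target genes 4 were tested, and they gave no common direction. Of these, 1 was called higher and 1 lower, beside 22.6% and 23.6% of all tested genes. HES7 rose from 2.60 and 2.36 CPM to 5.09 and 3.65 CPM (0.86, adjusted p = 0.000413). Its shYEATS2 libraries were further apart than its shControl libraries (SD 1.02 and 0.174 CPM), and its call was lost without shYEATS2 replicate 1. HES4 fell from 9.90 and 9.58 CPM to 5.49 and 5.60 CPM (−0.82, adjusted p = 2.1e-06). HES6 (0.26) and NRARP (−0.37), the latter a feedback inhibitor of Notch, were not called. HES5 was at 0 in all libraries. NOTCH4, the remaining receptor, had 3 to 19 counts per library and was not called.

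**Figure D4:**
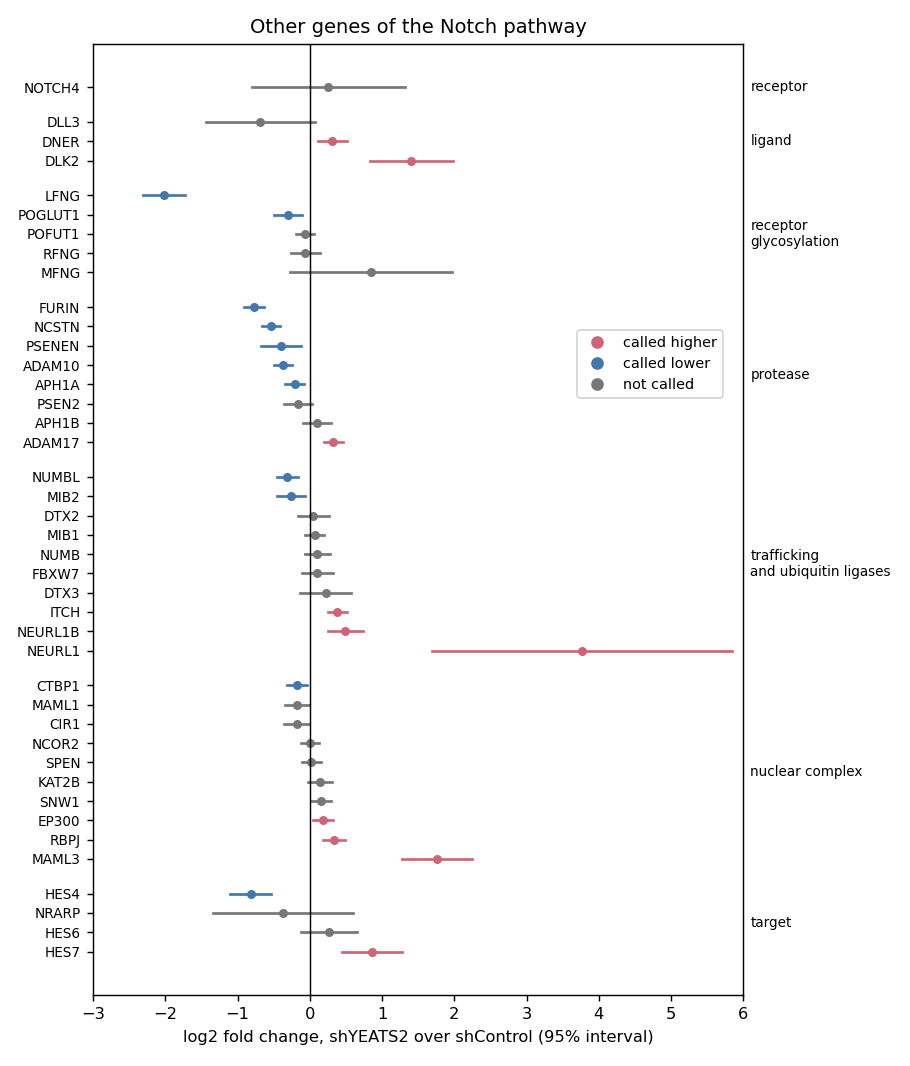
Log2 fold change of shYEATS2 over shControl, with its 95% interval, for tested Notch pathway genes other than the members, grouped by role, with 1 gene of the list left out; red marks genes called higher, blue lower and grey not called. LFNG stands out to the left at −2.02; the point of NEURL1 rests on 16 counts in all and is no measure of its fold.

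The genes whose profile over the 4 libraries was most like that of a member were found by the root mean square difference of centred log2 CPM, among 9358 tested genes with at least 10 CPM on average. For NOTCH3 these were MAP2K3 (0.018), PLEKHM1 (0.020) and EPN2 (0.027). For JAG1 they were MED8 (0.012), NUDCD1 (0.013) and POC1A (0.015). For HES1 they were INPP5A (0.017), GPATCH3 (0.020) and SNRPA1 (0.026). A total of 350 genes came within 0.1 of NOTCH3, 364 of JAG1 and 1338 of HES1, so with 4 libraries such likeness is common.

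**Figure D5:**
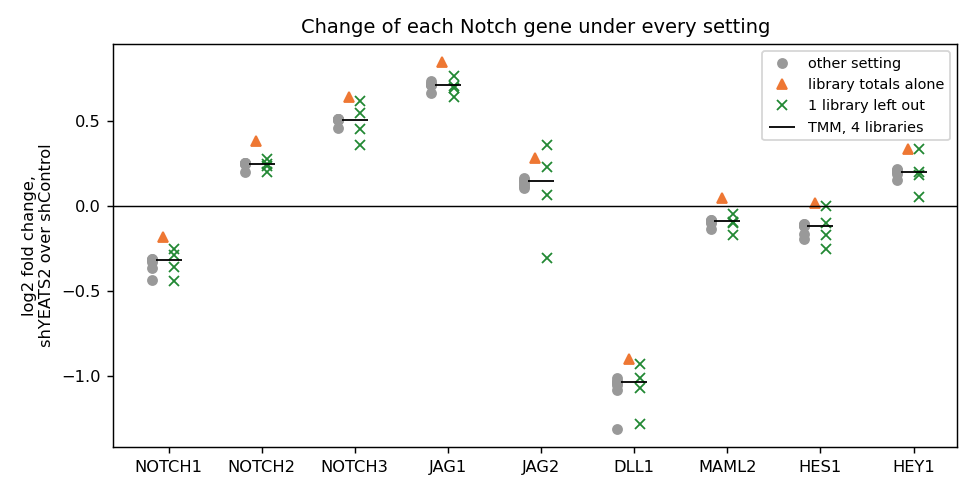
Log2 fold change of each tested Notch member under every setting tried, with a line for the TMM fit on 4 libraries, orange triangles for library totals alone, green crosses for fits that leave out 1 library and grey points for the others. NOTCH2, NOTCH3 and JAG1 stay above 0 and NOTCH1 and DLL1 below 0 in all of them, while HES1, MAML2 and JAG2 each have points on both sides of 0.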

How the data were processed

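The files held 1 count per Ensembl gene for 4 libraries of BICR10 cells. Per the labels and the paper's methods, the authors enriched mRNA, made stranded libraries and read 150 bp from both ends. STAR was used for alignment (GRCh38) and HTSeq for counting. The deposited counts are raw, and the annotation release and strand setting are not given in the sources used here. Tallies outside gene rows (15.3% to 16.5% of each library) were left out of library sizes. Depth was 11334133 to 47297970 counts on genes.

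In R 4.3.3 with edgeR 4.0.16, filterByExpr kept 17058 genes, TMM gave the scaling, and the quasi-likelihood test (robust glmQLFit, then glmQLFTest) was run without covariates. The study's own tool, DESeq2 (1.42.0), was an alternative, as were limma-voom (limma 3.58.1), other scalings and filters, a replicate block, thinning and leaving out each library. Calls needed an adjusted p (Benjamini-Hochberg, over all tested genes) under 0.05. Intervals are 95% and come from the fit, and each ± is the SD of 2 libraries. The common biological coefficient of variation was 4.95%, and replicates differed by more than counting noise (chi-square per degree of freedom 5.95 and 5.39). For 1 gene alone, the smallest p an exact two-sided permutation test allows here is 0.333. Gene positions and lengths came from GENCODE release 44, which held 60295 of the 60623 identifiers. The fit was tested on simulated data.

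The members and lists were chosen with earlier results of these data known. Named are all members; of the other pathway genes, in each role the 2 largest rises and falls among called genes whose conditions did not overlap; and the 3 genes most like the most abundant receptor, ligand and target per length. For the other pathway genes, 1 named by this rule is not reported here. ADAM10, PSENEN, APH1A, ITCH, EP300, MAML1, HES6, NRARP and genes listed for low counts were named after their values were seen.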

Additional observations from a re-analysis of the deposited data

How the results depend on the processing

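Each of the 9 tested members was refitted under 12 alternatives, 108 fits in all, of which 99 kept the direction and the side of the threshold. NOTCH2, NOTCH3 and JAG1 were called higher in all 12. Leaving out each library in turn gave log2 fold changes of 0.20 to 0.28 for NOTCH2, 0.36 to 0.62 for NOTCH3, 0.64 to 0.77 for JAG1, −0.44 to −0.25 for NOTCH1, −1.28 to −0.93 for DLL1, −0.25 to 0.0015 for HES1, −0.31 to 0.36 for JAG2, 0.06 to 0.34 for HEY1 and −0.17 to −0.05 for MAML2, and between 1 and 2 members lower. The sign turned with library totals alone for MAML2 (0.045) and HES1 (0.015). That scaling gave 1 member lower, 17 other pathway genes higher and 5 lower. DESeq2 gave 0 members lower (NOTCH1 and DLL1 at unadjusted p of 0.0202 and 0.0170) and 7 other pathway genes lower, and leaving out each library gave 7 to 12. A change of at least 2-fold left 1653 genes of the whole table, 0 members higher, 1 lower, and 3 other pathway genes higher and 1 lower. The causes of these shifts were not tested.

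The replicate differences of shControl and shYEATS2 had a correlation of −0.018 over genes. With 4 libraries this does not settle whether equal replicate numbers mark a pairing. With a replicate block, 8012 genes were called in place of 7876, with 3 members higher and 2 lower as before and 12 other pathway genes in each direction, so it changed no call of a member. Depth limits mainly HEYL, JAG2 and DLL1, which had at most 100 counts in any library.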
